A study of Mus musculus with 2 samples.

Results

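The fibroblast growth factor (FGF) ligands Fgf10, Fgf9, Fgf7, Fgf1 and Fgf18 and the receptors Fgfr1, Fgfr2, Fgfr3, Fgfr4 and Fgfrl1 were examined in mouse embryonic lung at E13.5, while new airway branches are forming. They were chosen by name: a probe set belonged to one of these 10 genes when the platform annotation gave it that symbol and no other. All 10 were found, among 19938 genes with a probe set of their own, and each was read by 1 probe set. The study compared lungs of genotype Etv4;5 knockout with wild type (WT) lungs. One label shortens the knockout to CKO and another calls it DKO, and the Cre line, the deleted parts of the genes and the sex of the embryos are not given in the sources used here. RNA of 3 samples per genotype was pooled in equal amounts, giving 1 Affymetrix array for each genotype and no replicates. Each difference below is therefore between these 2 pools, with no replicate check, no test and no p-value, and the number of arrays limits the precision.

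FGF ligands bind receptor tyrosine kinases together with heparan sulfate and signal inside the cell mainly through RAS and ERK. In the embryonic lung, Fgf10 is made by distal mesenchyme and acts on the epithelial splice form of Fgfr2 to drive bud outgrowth. Fgf9 is made by mesothelium and epithelium and acts on mesenchymal receptor forms. Etv4 and Etv5 are ETS transcription factors that FGF signalling induces in the distal epithelium, so the genes described here lie upstream of the factors that were knocked out.

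Because the knocked-out factors bind DNA, the promoters of 3 genes are shown: Fgf10 and Fgf9, which had the largest differences in each direction, and Fgfrl1, the gene with the longer ETS sequence described next. The sequences are from RefSeq on GRCm38.p6, each running from 250 bases before to 50 bases after a gene start on the plus strand, and capitals mark GGAA, the core that ETS factors recognise, or TTCC, the same core on the other strand. Fgf10 is at chr13:118714449-118714748, Fgf9 at chr14:58072436-58072735 and Fgfrl1 at chr5:108693979-108694278.
Fgf10: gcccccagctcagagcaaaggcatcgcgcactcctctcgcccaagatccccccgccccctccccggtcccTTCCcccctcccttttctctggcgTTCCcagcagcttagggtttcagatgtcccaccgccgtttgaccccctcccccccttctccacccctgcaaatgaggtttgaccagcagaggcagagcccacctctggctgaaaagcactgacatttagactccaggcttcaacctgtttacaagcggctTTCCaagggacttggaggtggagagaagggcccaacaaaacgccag
Fgf9: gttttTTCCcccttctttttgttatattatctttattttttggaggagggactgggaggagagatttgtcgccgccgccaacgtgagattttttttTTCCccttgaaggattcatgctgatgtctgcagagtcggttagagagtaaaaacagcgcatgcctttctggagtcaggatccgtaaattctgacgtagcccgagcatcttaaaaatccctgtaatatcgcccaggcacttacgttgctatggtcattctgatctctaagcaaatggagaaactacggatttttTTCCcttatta
Fgfrl1: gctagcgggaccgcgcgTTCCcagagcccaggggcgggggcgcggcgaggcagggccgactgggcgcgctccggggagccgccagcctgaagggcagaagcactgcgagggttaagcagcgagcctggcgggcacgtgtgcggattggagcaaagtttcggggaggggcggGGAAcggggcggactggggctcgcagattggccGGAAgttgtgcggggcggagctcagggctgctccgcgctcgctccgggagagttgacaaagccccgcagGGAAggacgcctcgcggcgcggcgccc
RefSeq windows were found for 8 of the 10 genes, 9 windows in all, since Fgfr3 has 2. The core GGAA, searched on both strands, was in 9 of the 9 windows and in 96.0% of all 32851 promoter windows of this length, so its presence does not set these genes apart. The longer sequence CCGGAAGT, which contains GGAA, was searched on both strands and found in 1 of the 9 windows, that of Fgfrl1, where its first base lies at -48 from the gene start, against 3.89% of all windows. A match is a description of the letters and not a site of binding.

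The deposited values were log2 values as judged from their range: they reached 14.4 on both arrays, above the 11.1 that a 16-bit scanner can give in natural logs and below the 16 it can give in log2. Medians over 35557 probe sets were 7.58 on the knockout array and 7.60 on the WT array. Genes were called measured if their higher value was no lower than the median of the array it came from, which held for 11045 genes. Of the targeted genes, Etv5 read 11.28 in the knockout pool and 11.51 in the WT pool on its brighter probe set, and 11.17 in the knockout pool and 11.41 in the WT pool on the other. Etv4 read 6.96 in the knockout pool and 7.59 in the WT pool, both under the array medians. A probe set outside a deleted part checks nothing. Sex-linked genes were unequal between the pools, with Xist at 5.74 in the knockout pool and 12.34 in the WT pool, and with Uty, Eif2s3y and Kdm5d higher in the knockout pool by 0.64, 0.53 and 0.53. In the WT pool Uty, Eif2s3y and Kdm5d still read 8.99, 9.90 and 9.05, above the array median, while Xist in the knockout pool was under it. The sex make-up of the pools thus differed along with genotype. This difference accompanies every value below, and its part in them was not tested.

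Fgf10 was the one gene of the 10 that differed by at least 1.2-fold, and it was higher in the knockout pool. Its value was 10.24 in the knockout pool and 9.84 in the WT pool, a difference of 0.40 on the log2 scale or 1.32-fold. Fgf10 thus stood well above the median on both arrays and higher on the knockout array. Of the other measured genes, 48 (0.435%) had a difference at least as high, and 95 (0.860%) one at least as large in either direction. The spread of differences narrows with brightness, so each gene was also set against measured genes whose mean level lay within 0.5 log2 units of its own. Of 2837 such genes near Fgf10, 17 (0.599%) differed by at least as much, and the central 95% lay between -0.20 and 0.12. Under 3 other scalings of the arrays the Fgf10 difference was 0.42, 0.43 and 0.42.

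Counts of genes were read against all measured genes. Of the 9 measured FGF genes, 1 was at least 1.2-fold higher in the knockout pool, against 1.39% of all measured genes, and 0 were at least 1.2-fold lower, against 1.53%. At 2-fold the counts were 0 higher and 0 lower, against 0.0543% and 0.0362% of all measured genes. At 1.1-fold, 1 of the 9 was higher (Fgf10) and 1 lower (Fgf9), against 5.05% and 7.5%, and at 1.5-fold 0 were higher and 0 lower, against 0.172% and 0.163%. With 9 genes, a single gene is a large share, so these counts describe Fgf10 and not the family. The median difference of the 9 was -0.015 and that of all measured genes 0.00.

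**Figure D1:**
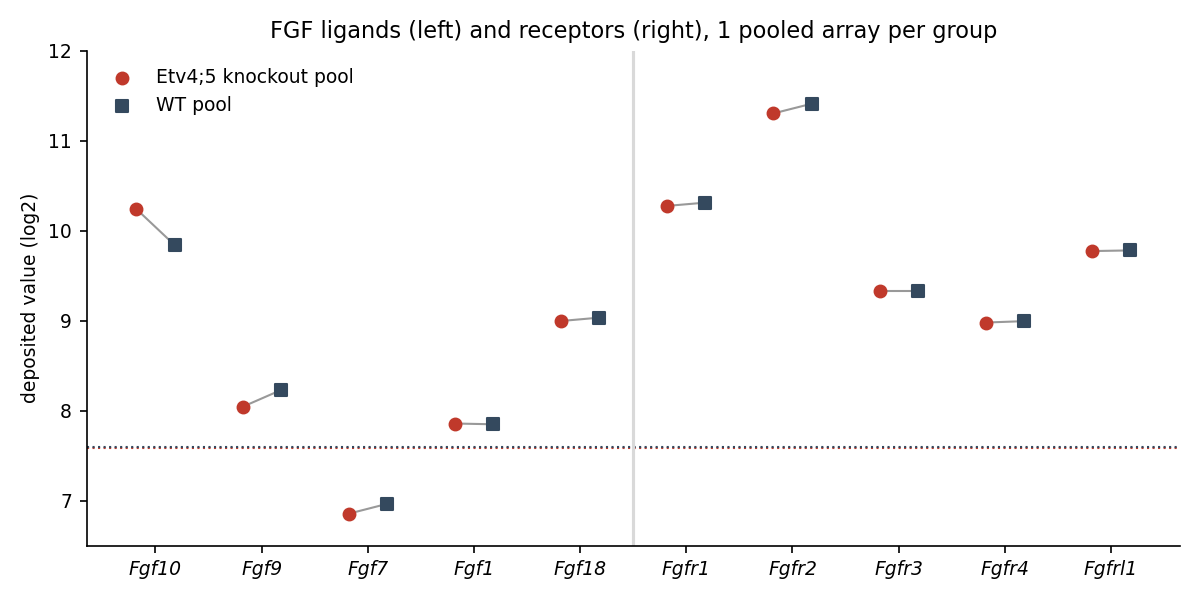
Deposited log2 values of the 5 ligands (left of the vertical line) and 5 receptors (right of it); red circles are the Etv4;5 knockout pool, dark squares the WT pool, each 1 array, and the dotted lines are the array medians of 7.58 and 7.60, which nearly coincide. Fgf10 is the pair with the clearest step, 10.24 against 9.84, and Fgf7 is the pair that lies under the medians; heights of different genes are not comparable.

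Among the other ligands, Fgf9 had the largest difference in the opposite direction. It read 8.04 in the knockout pool and 8.23 in the WT pool, a difference of -0.19 (1.14-fold). That size was matched or exceeded by 768 other measured genes (6.95%) and by 291 of 2951 genes of like level (9.86%), whose central 95% lay between -0.24 and 0.25. Fgf9 was thus lower in the knockout pool by an amount inside the bulk of genes.

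Fgf7, a mesenchymal ligand of the same epithelial receptor form as Fgf10, read 6.86 in the knockout pool and 6.96 in the WT pool. Both values were under the array medians, so Fgf7 did not count as measured, and its difference of -0.11 rests on dim values. Fgf18, a mesenchymal ligand also known from cartilage and bone, read 8.997 in the knockout pool and 9.034 in the WT pool. Its difference of -0.038 was matched or exceeded by 5192 other measured genes (47.0%). Fgf1, a ligand without a classical secretion signal that binds all the signalling receptors, read 7.86 in the knockout pool and 7.85 in the WT pool. Its difference of 0.0088 was small, with 65.8% of other measured genes at least as far from 0. Of the 5 ligands, 2 were higher and 3 lower in the knockout pool, over a range from -0.19 to 0.40.

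The receptors differed little between the pools, none by more than 0.11. Fgfr2, whose epithelial splice form is the receptor of Fgf10 and Fgf7, read 11.30 in the knockout pool and 11.41 in the WT pool, a difference of -0.11 (1.08-fold). Among the 1018 measured genes of like level, 105 (10.3%) differed by at least as much, and the central 95% lay between -0.18 and 0.08. Fgfr2 was read by 1 probe set for the whole gene, so its epithelial and mesenchymal splice forms cannot be told apart here.

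Fgfr1, the receptor of much of the mesenchyme, read 10.28 in the knockout pool and 10.31 in the WT pool, a difference of -0.037. Fgfr4 read 8.98 in the knockout pool and 8.99 in the WT pool, a difference of -0.015. Fgfr3, which acts with Fgfr4 in later alveolar formation, had the same value, 9.33, in both pools. Identical values on both arrays were common, at 3016 of 11045 measured genes (27.3%), and no reason is given in the sources used here. Fgfrl1, a receptor-like protein that lacks the kinase domain, read 9.77 in the knockout pool and 9.78 in the WT pool, a difference of -0.0074. Among measured genes of like level, 44.2% differed by at least as much as Fgfr1, 61.6% as Fgfr4 and 66.4% as Fgfrl1. Of the 5 receptors, 4 were lower in the knockout pool and 1 was equal as deposited. Under each of the 3 other scalings Fgfr4, Fgfrl1 and Fgfr3 turned slightly higher in the knockout pool, by 0.026 or less, so no direction can be given for them.

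**Figure D2:**
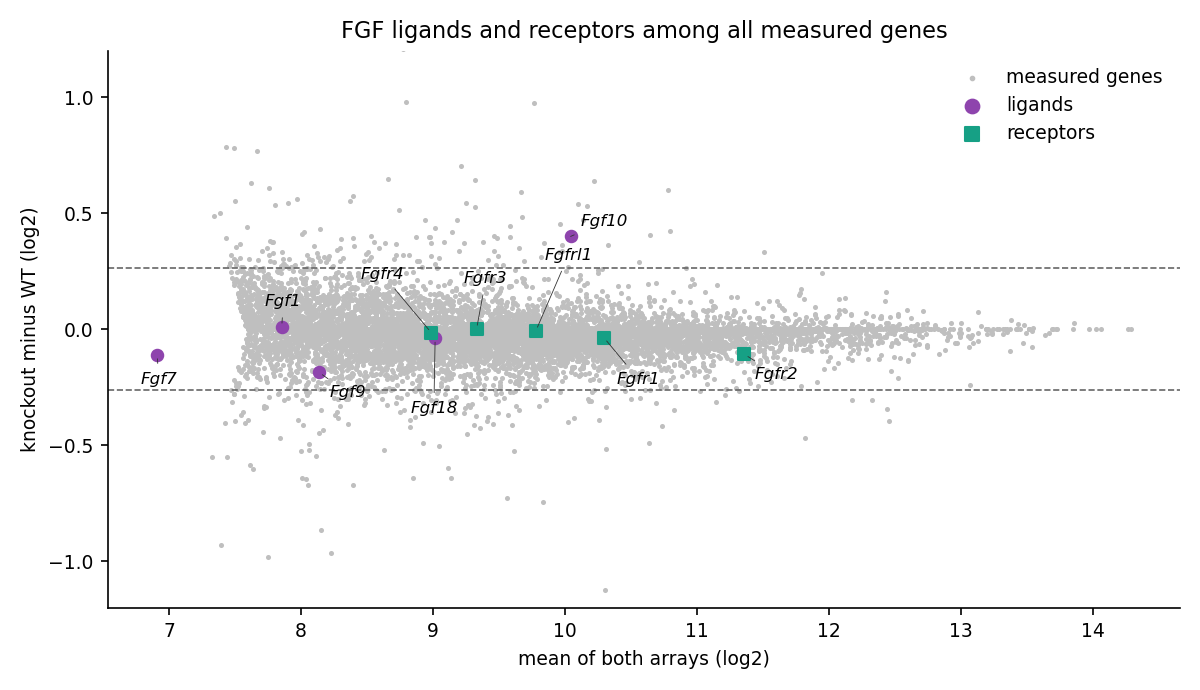
Difference between the pools (knockout minus WT, log2) against the mean of both arrays (log2) for all measured genes (grey), the FGF ligands (purple circles) and the receptors (green squares); dashed lines mark 1.2-fold, and 9 measured genes beyond 1.2 log2 units lie outside the axis. Fgf10, at 0.40, is the gene of the 10 that lies outside the dashed lines; Fgf7 lies left of the measured genes because both its values were dim.

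**Figure D3:**
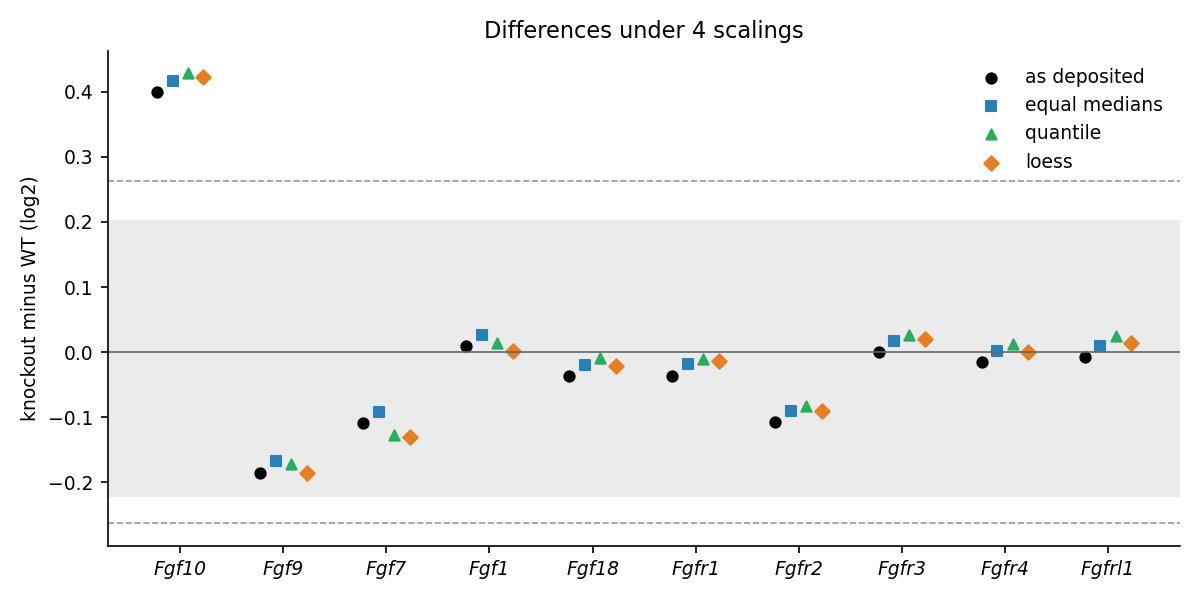
Difference between the pools (knockout minus WT, log2) of each of the 10 genes as deposited and under 3 other scalings; the grey band is the central 95% of all measured genes as deposited (-0.22 to 0.20) and the dashed lines mark 1.2-fold. Fgf10 stays between 0.40 and 0.43, above the band, Fgf9 stays between -0.19 and -0.17 within it, and Fgfr3, Fgfr4 and Fgfrl1 sit at 0 or change side.

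The precision of a single probe set can be gauged from genes that have 2. For 618 such measured genes, the differences given by both probe sets lay a median of 0.043 apart, and 90% lay within 0.18. The difference of Fgf10 was larger than both numbers. Those of Fgf9 and Fgfr2 were larger than the median gap, with Fgf9 (-0.185) just past the 90% limit and Fgfr2 within it, and those of Fgf18, Fgf1, Fgfr1, Fgfr3, Fgfr4 and Fgfrl1 were smaller than the median gap. Both probe sets of a gene read the same pool, so this gap leaves out variation between embryos.

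The rest of the FGF ligand family gave no gene at 1.2-fold, against 1.39% higher and 1.53% lower of all measured genes. At such shares a short list can hold 0, so the 0 counts of this list and the next ones do not show an unchanged pathway. Of 17 other ligand genes 5 were measured, with 2 higher, 1 lower and 2 equal, and a median of 0.00. Fgf22, a ligand of the Fgf7 and Fgf10 subfamily, read 7.67 in the knockout pool and 7.42 in the WT pool, a difference of 0.25. It passed the limit for measured genes through its knockout value alone, and with equal array medians it just reached 1.2-fold. Fgf8, a ligand of early patterning, read 8.32 in the knockout pool and 8.20 in the WT pool, a difference of 0.12.

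FGF ligands are held and presented by heparan sulfate, and genes that build or edit it are given next. Of 12 measured genes (13 of 14 matched) 10 were lower, 0 higher and 2 equal, with a median of -0.09, beside 5193 lower and 2836 higher of 11045 measured genes. Of the 12, 0 reached 1.2-fold, against 1.39% higher and 1.53% lower of all measured genes. When genes were filtered at the 75th percentile, their median difference as deposited was -0.0075, so brighter genes leaned slightly lower. Neither this list nor those below were set against genes of like level. Under the 3 other scalings 9 or 10 of the 12 were lower, with medians from -0.08 to -0.07. The largest differences were those of Sulf2, an extracellular sulfatase that removes sulfate groups from heparan sulfate (10.97 in the knockout pool, 11.17 in the WT pool, difference -0.20), and of Hs6st2, a sulfotransferase that adds them (7.94 in the knockout pool, 8.11 in the WT pool, difference -0.17).

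Co-receptors and FGF-binding proteins went both ways, with 5 of 12 measured genes higher and 6 lower, 0 at 1.2-fold and a median of -0.026. For this and the other lists of this paragraph, the shares of all measured genes at 1.2-fold were 1.39% higher and 1.53% lower. Flrt3, a membrane protein that binds FGF receptors, read 8.59 in the knockout pool and 8.37 in the WT pool (0.22), while the glypican Gpc6 read 10.95 in the knockout pool and 11.16 in the WT pool (-0.21). Downstream of the receptors, 2 of 15 measured adaptor and RAS-ERK genes were higher and 9 lower (15 of 21 matched). Of all 11045 measured genes, 2836 were higher and 5193 lower as deposited. Among the 15, again 0 reached 1.2-fold, and the largest differences were those of the adaptor Frs3 (0.15) and the RAS activator Sos1 (-0.12). The 10 feedback inhibitors had 2 members higher, 6 lower and 0 at 1.2-fold, with Spred3 at 0.15 and Spry2 at -0.12. Medians of the adaptor and feedback lists were -0.0024 and -0.0078 and turned positive under each of the 3 other scalings, so no direction can be given for them.

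**Figure D4:**
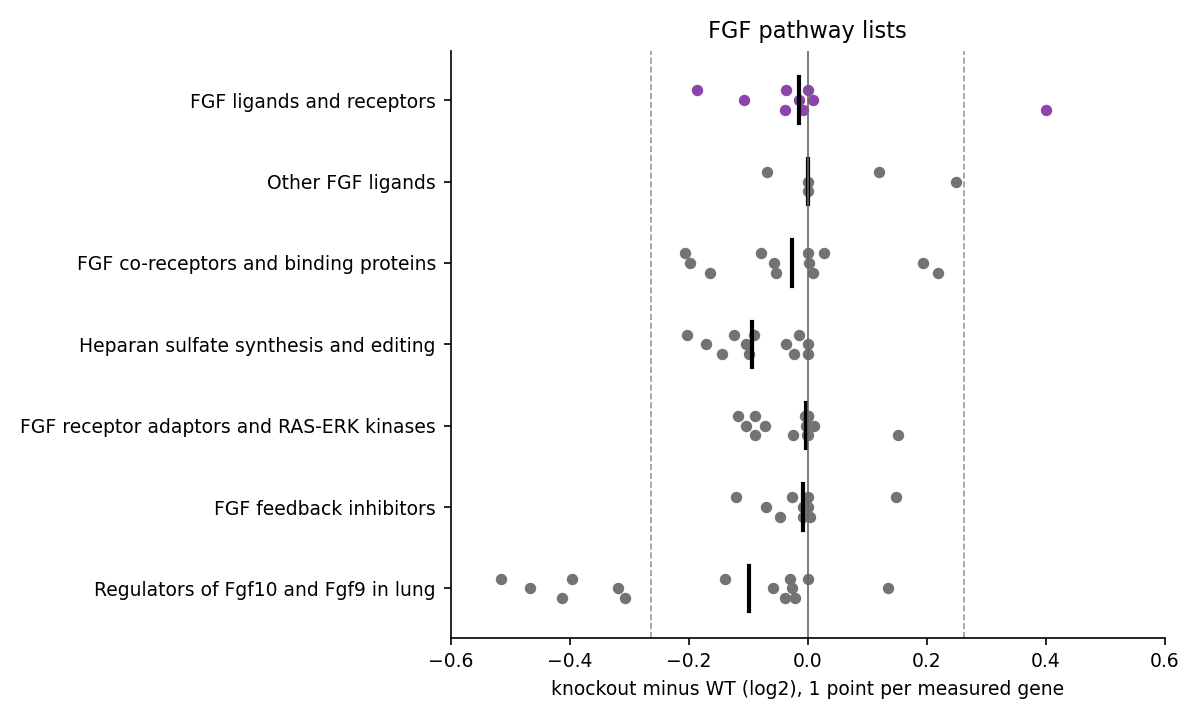
Differences between the pools (knockout minus WT, log2) of the measured genes of the FGF family and 6 related lists, 1 point per gene; black bars are list medians and dashed lines mark 1.2-fold. Fgf10 at 0.40 is the right-most point, the heparan sulfate genes lie at or left of 0, and 6 genes that regulate Fgf10 or Fgf9 lie beyond the left dashed line.

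Among genes known to regulate Fgf10 or Fgf9 in the lung, lower values in the knockout pool prevailed. Of 14 measured genes 12 were lower and 1 higher, and 6 were at least 1.2-fold lower, against 1.53% of all measured genes, of which 5193 were lower and 2836 higher. Under each of the 3 other scalings 12 of the 14 were lower as well. Shh, the epithelial ligand known to restrain Fgf10, read 9.11 in the knockout pool and 9.52 in the WT pool (-0.41). Its receptor and target Ptch1 differed by -0.47, its target Hhip by -0.52, and the mesenchymal factor Foxf1 by -0.40. The other genes past 1.2-fold, named after their values were seen, were the mesenchymal ligands Wnt2b (-0.32) and Wnt2 (-0.31). The remaining 8 lay closer to 0, among them the Hedgehog effectors Gli1 (-0.14), Gli2 (-0.03) and Gli3 (-0.03) and the mesenchymal factors Tbx4 (-0.02) and Tbx5 (-0.04). The epithelial ligand Wnt7b was the higher gene (0.13), and Bmp4 was equal on both arrays. This list was drawn up with earlier results of these data known, so its direction is not independent evidence. Shh and its targets Ptch1 and Hhip belong to 1 pathway and are not separate observations. Whether Foxf1 and the other genes of the list differed independently of that pathway was not tested. The part of any of these genes in the Fgf10 or Fgf9 values was not tested.

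Lung is a mixture of cell types, and in pooled tissue fewer cells of a type and less RNA per cell cannot be told apart. The marker counts below stand beside 5193 lower and 2836 higher of 11045 measured genes as deposited. Defining markers of lung were present in both pools: the epithelial factor Nkx2-1 read 10.70 in the knockout pool and 10.58 in the WT pool, and the mesenchymal factor Foxf1 read 12.26 in the knockout pool and 12.65 in the WT pool. Of 12 epithelial markers 8 were higher and 4 lower in the knockout pool, among them Krt18 (0.47), Krt8 (0.33), Sox9 (-0.32) and Sftpc (-1.12). Elf3 (0.26), 1 of the 8, passed the limit for measured genes through its knockout value alone. The summed signal of the 12, on the log2 scale, was 14.49 in the knockout pool and 14.53 in the WT pool. Such sums add signals of different probe sets, so the brightest genes weigh most in this sum and in those below. Of 11 measured mesenchyme markers 9 were lower and 1 was higher, with summed signals of 14.68 in the knockout pool and 14.81 in the WT pool. Foxf1 was the brightest of the 11 and differed most, so it weighs most in these sums. Foxf1, Tbx4 and Tbx5 also stand in the list of Fgf10 and Fgf9 regulators above. Fgf10, itself mesenchymal, had a larger positive difference than each of the 11, whose range was -0.40 to 0.10.

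Of 7 measured mesothelial markers 4 were higher, 1 lower and 2 equal, with a median of 0.05. Krt19, at 0.45, was the 1 marker of the 7 past 1.2-fold, against 1.39% higher and 1.53% lower of all measured genes. Bnc1 (0.20), Lrrn4 (0.055) and Upk1b (0.052) were also higher, Upk3b (-0.09) was lower, and Wt1 and Aldh1a2 were equal. The summed signals of the 7 were 12.22 in the knockout pool and 12.15 in the WT pool. They include Krt19, so they do not show that mesothelial markers as a group were higher. Fgf9 (-0.19), made in part by mesothelium, lay below the range of these markers, which was -0.09 to 0.45. Fgf9 is also made by epithelium, and it lay inside the range of the epithelial markers, which was -1.12 to 0.47. All 8 smooth muscle markers were lower, with Synpo2 at -0.49, Myocd at -0.39 and Cnn1 at -0.31, and summed signals of 13.95 in the knockout pool and 14.11 in the WT pool. The 4 measured erythroid markers were lower too as deposited, among them Slc4a1 (-0.26), Hba-x (-0.25) and Alas2 (-0.018). With quantile scaling 3 of the 4 were lower and 1 was higher. Their summed signals as deposited were 13.55 in the knockout pool and 13.78 in the WT pool. Of 6 measured leukocyte markers 5 were lower and 1 was equal (Mrc1 -0.17, Csf1r -0.15). No marker was listed at 0 on either array, but the lowest values of any probe set were 2.69 (knockout) and 2.72 (WT). A listed value therefore does not show that a cell type was present. The part of these marker differences in the values of Fgf10, Fgf9 and Fgfr2 was not tested.

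Markers of 4 further cell types were also followed. Endothelial markers (8 measured, median -0.014) included Sox17 at -0.15 and Pecam1 at -0.08. Tracheal cartilage markers (5 measured, median -0.037) included Cnmd at -0.41, which passed the limit for measured genes through its WT value alone. Heart muscle markers (5 measured, median -0.045) included Myl7 at -0.25 and Myl4 at -0.10. Of the neuron and glia markers 2 were measured, Stmn2 at -0.20 and Ret at 0.14.

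**Figure D5:**
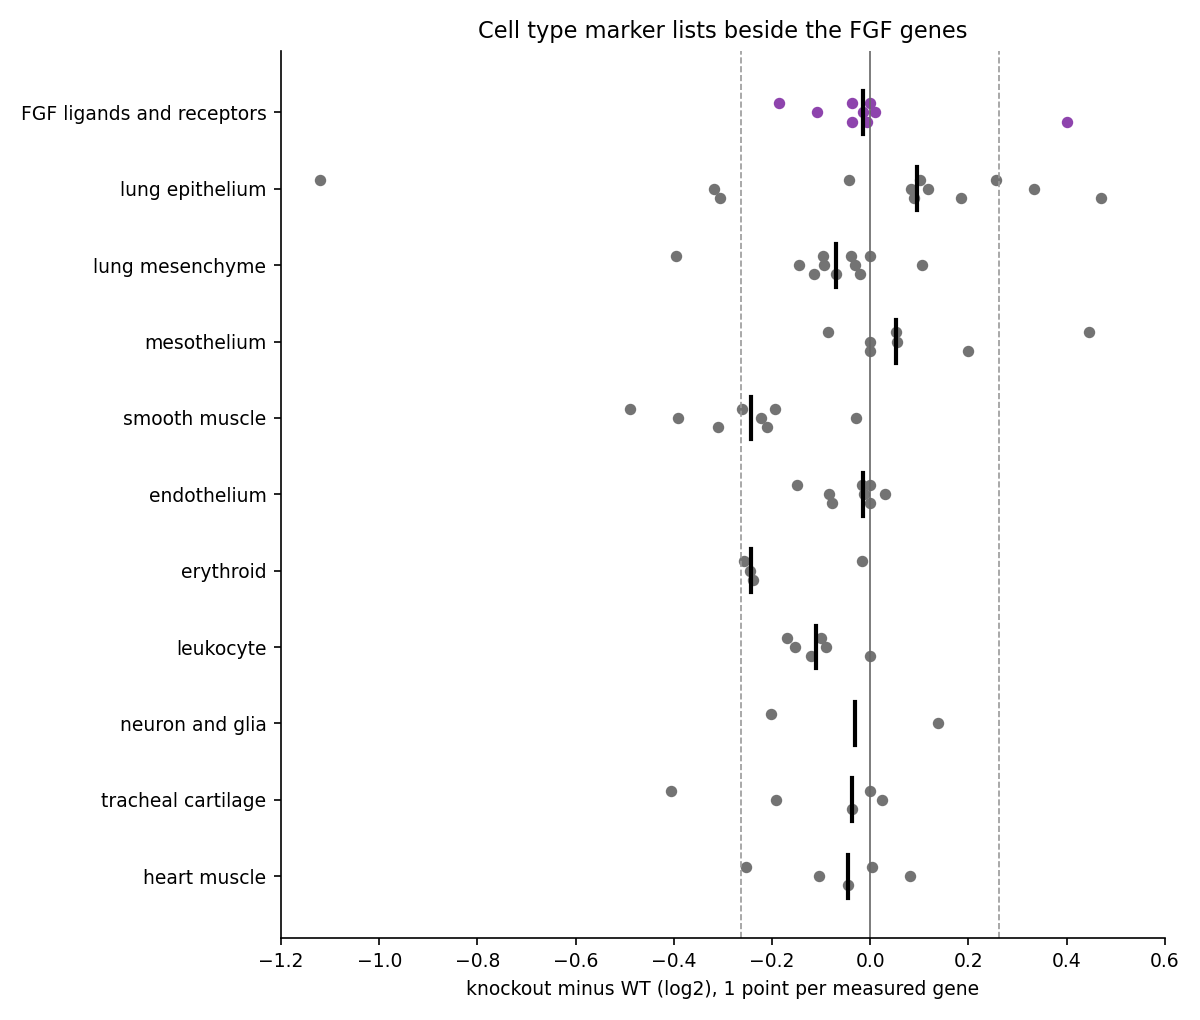
Differences between the pools (knockout minus WT, log2) of the measured FGF genes and of measured markers of 10 cell types, 1 point per gene; black bars are medians and dashed lines mark 1.2-fold. Fgf10 at 0.40 lies right of every mesenchyme marker, and all 8 smooth muscle markers and all 4 erythroid markers lie left of 0 as deposited.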

How the data were processed

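Per the labels' protocols, total RNA was extracted with a kit, labelled with biotin and read on Affymetrix arrays. The design text of the series states that 3 samples were pooled within each group. The authors' deposited values, 1 for each probe set on each array, were taken as log2 expression. Their summary method and normalization are not given in the sources used here.

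Of 35557 probe sets, 21789 carried a single symbol in the platform annotation, and 21698 of these matched RefSeq genes (GRCm38.p6) by gene ID. The brightest probe set stood for a gene. Genes with equal values were held against the WT median. Differences are knockout minus WT. The steps were tested on simulated data with known differences. In each related list, at most 4 measured genes past 1.2-fold were named, or failing that the 2 that differed most. The FGF genes, lists, thresholds and rules were chosen with earlier results of these data known. Alternatives were equal array medians, quantile scaling, loess scaling (span 0.3), averaging a gene's probe sets, no filter, filtering at the 75th percentile, flooring at the 25th percentile, and thresholds of 1.1-fold and 1.5-fold. Python 3.11.15 was used with numpy 2.4.6, statsmodels 0.14.6, pandas 2.3.3 and matplotlib 3.10.9.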

Additional observations from a re-analysis of the deposited data

How the results depend on the processing

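No array could be left out, since each group has 1. No paired analysis was possible because each group has 1 array. Over 66 alternative values of the 10 FGF genes, none moved by more than 0.033 (Fgfrl1 under quantile scaling). Each gene has 1 probe set, so averaging probe sets and filtering could not move a difference. The floor could move only that of a dim gene, so the 3 scalings are the alternatives that bear on these values. The count of genes at least 1.2-fold higher was 0 at 1.5-fold, and the count at least 1.2-fold lower was 1 at 1.1-fold; both follow from the threshold. Counts at 1.2-fold and 2-fold were otherwise the same under the 3 scalings. They were also the same with the probe set mean, both filters and the floor, of which the probe set mean could not change them. The median of the measured FGF genes was -0.015 as deposited, 0.0021 with equal medians, 0.012 with quantile and 0.00081 with loess scaling, so its sign carries no direction. With the filter at the 75th percentile 5 of the 10 genes were measured. Equal medians moved the median of all measured genes by 0.017. Dim signal limits Fgf7, and 12 of the 17 other ligands.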

Other observations

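Of the 17 FGF ligand genes outside the 10 described above, 12 did not count as measured. Of these, 6 were higher, 1 lower and 5 equal in the knockout pool, over differences from -0.034 to 0.17. The same shares among all dim genes were not counted. At 1.2-fold, 440 of 19938 genes were higher and 266 lower without the filter, against 154 and 169 of 11045 measured genes, so dim genes leaned higher. In the whole ligand family of 22 genes, 9 were measured, 7 had identical values on both arrays, 10 were higher and 5 lower. These counts include dim values, so no direction is read from them.

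Identical values on both arrays occurred for 10043 of 35557 probe sets (28.2%). By mean level, from the dimmest to the brightest of 4 equal parts of the probe sets, the share was 38.9%, 27.1%, 22.4% and 24.5%. Differences that were not 0 but under 0.001 in size were rare, at 88 probe sets. Among measured genes that differed at all, 2836 were higher and 5193 lower in the knockout pool as deposited, and with equal array medians 6713 were higher and 4344 lower, so small differences such as those of Fgfr4 and Fgfrl1 take their sign from the scaling.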
